A study of Mus musculus with 12 samples.

Results

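The respiratory chain genes described here are the nuclear genes whose names mark them as parts or helpers of respiratory complexes I to V. They were taken by name from the deposited expression table: every gene whose symbol starts with Nduf, Sdh, Uqcr or Atp5, or with Cox followed by 4, 5, 6, 7 or 8, apart from 3 names containing -ps. The rule found 94 of the 41128 genes in the table. All 94 are annotated as protein-coding in GENCODE M21, and they lie on 19 chromosomes, with 11 on chromosome 7 and 3 on the X. RNA sequencing was done on spleen cells of the inbred strain C57BL/6J at an age of 6 to 8 weeks, in 12 libraries and without any labelled treatment. Resting B cells that lack CD43, a surface protein of activated and innate-like B cells, gave 3 female and 3 male libraries, numbered 1 to 3 in each sex. Naive T cells carrying CD4 and CD62L, with low CD44 and no CD25, were enriched on beads and then sorted by flow cytometry, and gave 3 female and 3 male libraries numbered 4 to 6. Each library was a pool of mice, so p-values measure the spread between pools.

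Respiratory complexes I to IV sit in the inner mitochondrial membrane and pass electrons from NADH and succinate to oxygen, and complexes I, III and IV pump protons as they do so. Complex V, the ATP synthase, lets the protons back in and makes ATP. Most subunits come from nuclear genes and are imported, a smaller set is encoded by mitochondrial DNA, and complex II is wholly nuclear. Resting lymphocytes are known to rely largely on this oxidative route for ATP. Nuclear respiratory genes are known targets of the transcription factors NRF1, GABPA (a subunit of NRF2) and YY1.

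The promoters are shown first, since NRF1, GABPA and YY1 are known to bind near the start sites of respiratory genes. The RefSeq promoter table (GRCm38.p6, 250 bases before to 50 after each start) matched 78 of the 94 members with 84 promoters. The members without an entry include Atp5a1, Cox4i1, Cox4i2, Cox6a2, Cox6c, Cox8c, Ndufa2, Ndufa4l2, Ndufaf6, Ndufb9, Ndufs1, Sdhc, Uqcrb, Uqcrc2 and Uqcrq. The 7-letter cores CCGGAAG for GABPA, GCGCATG for NRF1 and AAGATGG for YY1 were searched on both strands, and no match of one factor overlapped a match of another. A promoter of each complex that held both a GABPA and an NRF1 core is printed below from 250 bases before to 30 after the start, with the cores in capitals, and they are followed by the promoters of the members at the opposite ends of the difference between cell types. Ndufb6 (complex I) is at chr4:40279392-40279671 on the minus strand, Sdhb (complex II) at chr4:140961021-140961300 on the plus strand, and Uqcr11 (complex III) at chr10:80406792-80407071 on the minus strand. Cox6a1 (complex IV) is at chr5:115348929-115349208 and Atp5k (complex V) at chr5:108434370-108434649, both on the minus strand. Cox7a2l, the member furthest towards T cells, is at chr17:83514304-83514583 on the minus strand. This window lies inside the Cox7a2l gene as annotated in GENCODE M21 (chr17:83501918-83517330). The bases around the annotated start of that gene are not printed. Atp5sl, the member furthest towards B cells and named Dmac2 in RefSeq, is at chr7:25619164-25619443 on the plus strand.
Ndufb6: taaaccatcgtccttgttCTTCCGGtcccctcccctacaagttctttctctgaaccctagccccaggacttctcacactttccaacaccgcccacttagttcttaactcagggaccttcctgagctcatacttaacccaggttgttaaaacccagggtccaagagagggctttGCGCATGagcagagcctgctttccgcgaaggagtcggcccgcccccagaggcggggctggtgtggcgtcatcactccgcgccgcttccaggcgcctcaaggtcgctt
Sdhb: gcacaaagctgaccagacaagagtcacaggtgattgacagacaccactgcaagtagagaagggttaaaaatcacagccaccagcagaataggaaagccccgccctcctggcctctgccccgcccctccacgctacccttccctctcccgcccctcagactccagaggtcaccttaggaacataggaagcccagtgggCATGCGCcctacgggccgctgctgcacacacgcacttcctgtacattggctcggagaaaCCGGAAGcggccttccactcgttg
Uqcr11: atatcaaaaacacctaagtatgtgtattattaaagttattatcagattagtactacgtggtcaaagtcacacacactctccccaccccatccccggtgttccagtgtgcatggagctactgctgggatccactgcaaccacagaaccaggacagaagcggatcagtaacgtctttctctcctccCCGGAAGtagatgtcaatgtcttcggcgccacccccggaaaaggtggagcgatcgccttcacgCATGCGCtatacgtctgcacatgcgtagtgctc
Cox6a1: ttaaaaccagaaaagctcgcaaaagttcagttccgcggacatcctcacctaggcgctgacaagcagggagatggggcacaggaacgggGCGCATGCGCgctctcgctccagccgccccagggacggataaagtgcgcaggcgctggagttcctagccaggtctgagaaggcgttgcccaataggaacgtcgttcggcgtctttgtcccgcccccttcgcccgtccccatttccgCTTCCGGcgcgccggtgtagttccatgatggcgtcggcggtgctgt
Atp5k: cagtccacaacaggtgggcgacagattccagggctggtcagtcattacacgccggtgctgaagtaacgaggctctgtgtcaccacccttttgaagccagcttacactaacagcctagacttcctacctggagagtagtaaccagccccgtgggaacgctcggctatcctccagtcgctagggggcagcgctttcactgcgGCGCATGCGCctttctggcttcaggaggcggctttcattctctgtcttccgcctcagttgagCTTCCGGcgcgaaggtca
Cox7a2l: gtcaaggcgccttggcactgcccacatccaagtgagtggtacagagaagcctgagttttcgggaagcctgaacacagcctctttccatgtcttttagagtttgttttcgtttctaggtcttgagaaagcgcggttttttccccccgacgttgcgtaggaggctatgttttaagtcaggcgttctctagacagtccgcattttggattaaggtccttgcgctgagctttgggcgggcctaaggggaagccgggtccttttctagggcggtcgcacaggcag
Atp5sl: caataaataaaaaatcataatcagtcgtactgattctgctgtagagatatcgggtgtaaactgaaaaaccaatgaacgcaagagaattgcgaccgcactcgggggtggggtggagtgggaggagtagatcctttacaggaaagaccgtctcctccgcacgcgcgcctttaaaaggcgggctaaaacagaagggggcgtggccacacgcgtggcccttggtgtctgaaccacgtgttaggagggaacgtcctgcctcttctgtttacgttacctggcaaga
The palindrome in Cox6a1 and Atp5k holds the NRF1 core on both strands. The printed windows of Cox7a2l and Atp5sl hold none of the cores, and a YY1 core of Atp5sl lies at the end of its window, partly beyond the printed bases.

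The GABPA core was present in 19 of the 84 member promoters (22.6%), against 19.3% of the promoters of other tested protein-coding genes and 8.86% of all promoters. The NRF1 core was present in 15 (17.9%), against 7.41% and 3.91%. The YY1 core was present in 13 (15.5%), against 7.49% and 6.34%. The share holding NRF1 or YY1 was thus the larger in member promoters, while the GABPA share was near that of other tested genes. In all, 39 of the 84 promoters held at least 1 core, and 6 held both GABPA and NRF1 cores, namely those of Atp5k, Atp5l, Cox6a1, Ndufb6, Sdhb and Uqcr11. A match is a string of letters and not a measured binding site.

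Values are adjusted TPM, the authors' length-corrected share of transcripts after a further rescaling between libraries, so levels can be set side by side between genes. All 86 members that passed the filter on low values, which asked for a value of 1 or more in 3 libraries, were at 1 or more in all 12 libraries. The other 8 did not pass it, and they are the tissue-restricted isoforms of complex IV described further on. Among the tested members the mean level over the 12 libraries ran from 2.40 for Atp5s to 305 for Atp5b, the catalytic beta subunit of ATP synthase, with a median of 40.5. Cox7a2l, a partner of Cox7a2 that joins complexes III and IV into supercomplexes and has a shortened form in C57BL/6J, had a mean of 276. The median ratio of upper to lower deposited bound over the tested members was between 1.12 and 1.24 in the 12 libraries. It was widest in female B cell 1 (1.24) and male T cell 6 (1.22). The level that the bounds stand for is not stated, so the precision of single values cannot be read from them. The SD within a group, on the log2 scale, had a median of 0.169 over members and 0.135 over all tested genes.

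The depth of the libraries is unknown, because the deposited values are not counts. Their totals ran from 561020 to 1453940, and a single noncoding RNA, Yam1, took 2.03% to 37.4% of a library, with the highest shares in female B cell 1 (32.2%) and male T cell 6 (37.4%). The identity of the cells was as labelled: 4 of 4 B cell markers (Cd79a, Cd79b, Ms4a1, Pax5) were higher in B cells and at most 2.00 in any T library, and 5 of 5 T cell markers (Cd3d, Cd3e, Cd4, Lck, Tcf7) were higher in T cells and at most 13.4 in any B library. The summed level of 4 cell cycle genes was 22.1 to 48.2 in B and 3.47 to 5.47 in T libraries, with 4 of 4 higher in B cells. The sum of 5 monocyte and granulocyte markers was 9.22 to 13.8 in B and 1.10 to 4.66 in T libraries, and the sum of 5 erythroid markers was 4.17 to 346 in B and 3.36 to 77.4 in T libraries. Their part in the results that follow was not tested.

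The comparison of B with T cells asks how the respiratory gene set differs between resting populations of the lymphocyte lineages. On the deposited scale nearly the whole set was higher in naive T cells: 70 of the 86 tested members were higher in T cells, 4 were higher in B cells (Atp5sl, Atp5s, Sdhaf2 and Ndufs8), and 12 did not pass an adjusted p of 0.05 in limma. Of all 12520 tested genes 73.0% passed, 41.6% higher in T and 31.4% higher in B cells, so passing the test was common, and T was the commoner direction among all genes too. The median member difference, B minus T, was -0.42 on the log2(adjusted TPM + 1) scale, against -0.09 for all tested genes. For 40 members all 6 T libraries were above all 6 B libraries, which held for 29.7% of tested genes, and for 4 members all 6 B libraries were above all 6 T libraries, which held for 24.2%. The ranges of the other 42 tested members overlapped. In bulk libraries, a difference in the share of cells that express a gene cannot be told apart from one in the level per cell. The values do not give the amount of RNA per cell.

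**Figure D1:**
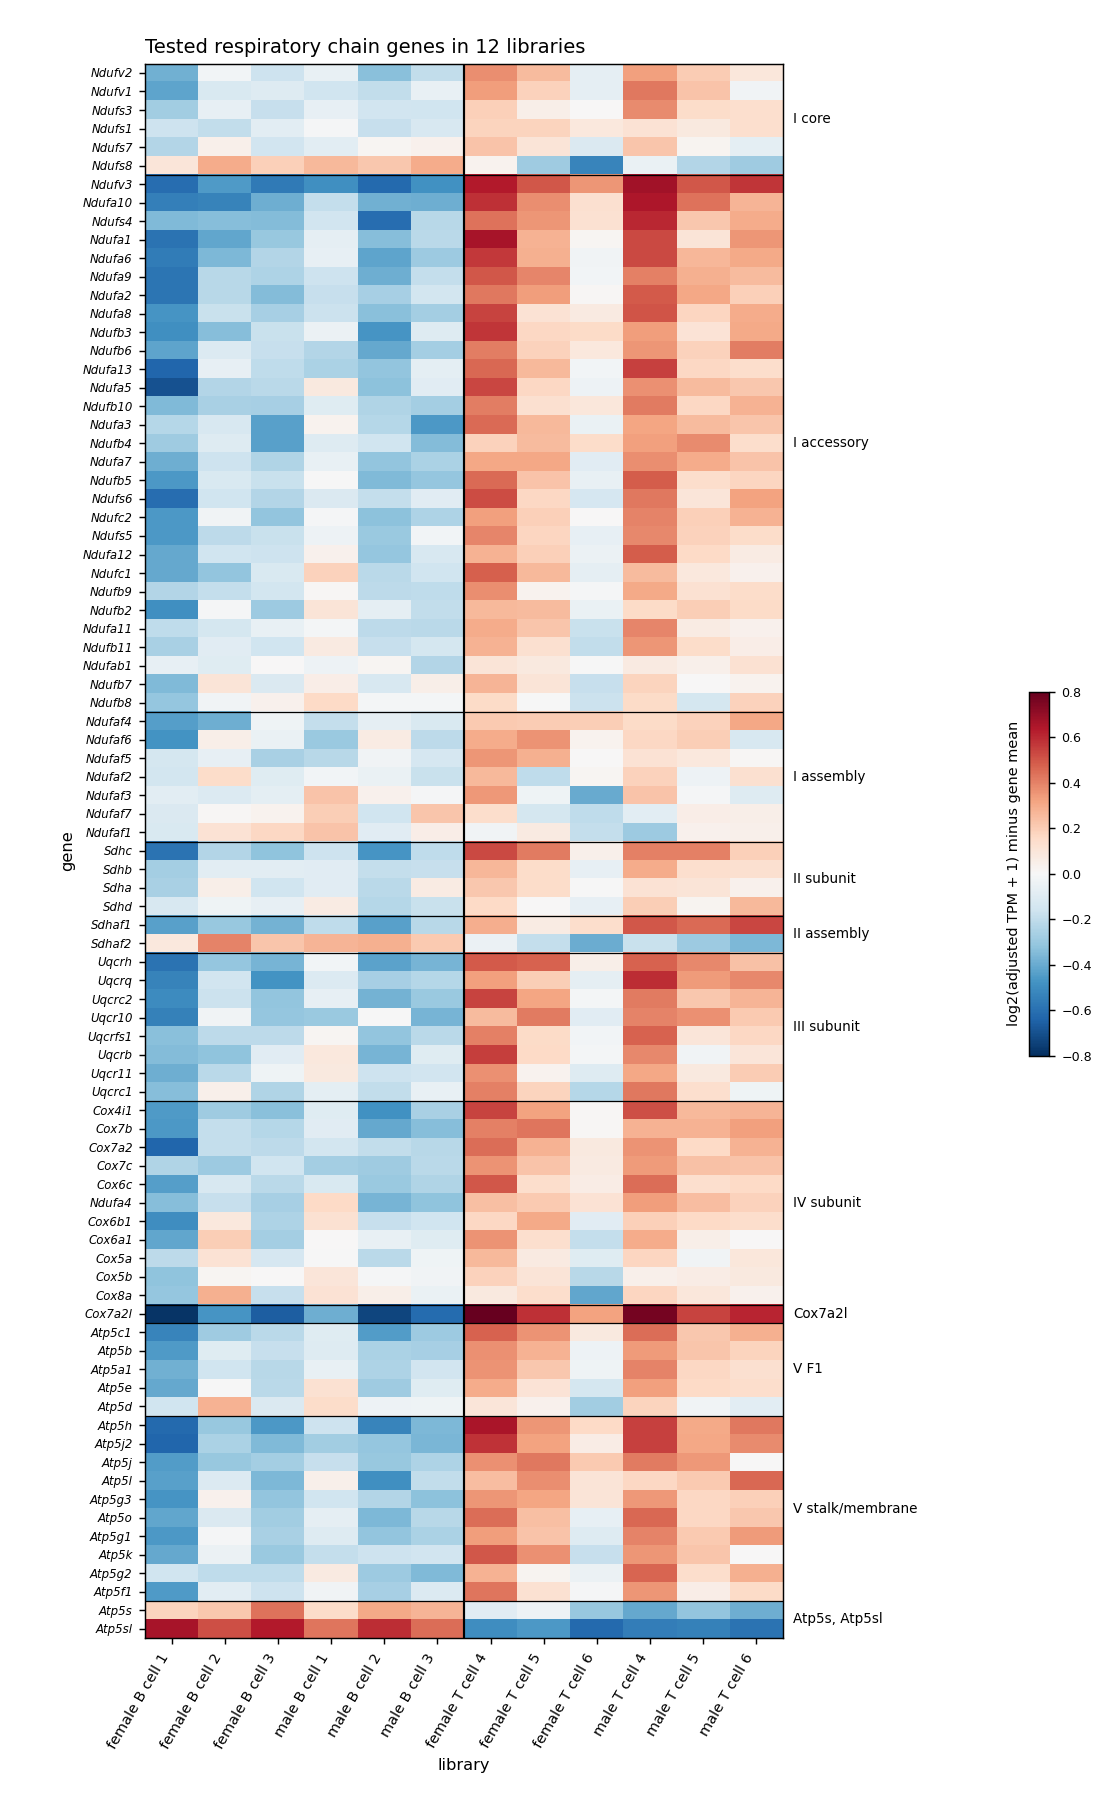
Heat map of 85 tested members (lines, grouped by role) in the 12 libraries (columns, B cells left and T cells right of the black line), with colour showing log2(adjusted TPM + 1) minus the gene's mean over the libraries. Most lines are blue in B and red in T cells on the deposited scale, Ndufs8, Sdhaf2, Atp5s and Atp5sl run the other way, and female B cell 1 is the deepest blue of its group for many genes.

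The direction of the set depends on how libraries are put on a common scale. With median-ratio scaling, 59 members were higher in T and 5 in B cells (34.4% and 37.8% of all tested genes). With an equal total over the other protein-coding genes, leaving out receptor segments, mitochondrial genes and Lars2, 44 were higher in T and 11 in B cells (25.9% and 46.7%). After rescaling each library to the same sum of 1000000, of which Yam1 takes a varying share, 3 were higher in T and 5 in B cells (15.9% and 38.4%). The median of all tested genes moved with the scaling from -0.09 to 0.01, 0.15 and 0.25, and the median member moved with it from -0.42 to -0.31, -0.16 and -0.05, in the same order. The median member was 0.33, 0.32, 0.31 and 0.30 below the median gene, and 75 of the 86 members were below it under each scaling. A scaling divides all values of a library by the same factor and so shifts all genes nearly alike. That this distance hardly moved was therefore fixed in advance, and it counts as a single observation. Set against other genes, most members were thus low in B relative to T cells. The sign itself, which does depend on the scaling, was negative under all 4 for 50 of 86 members. The share of all tested genes for which this held is not given here.

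**Figure D2:**
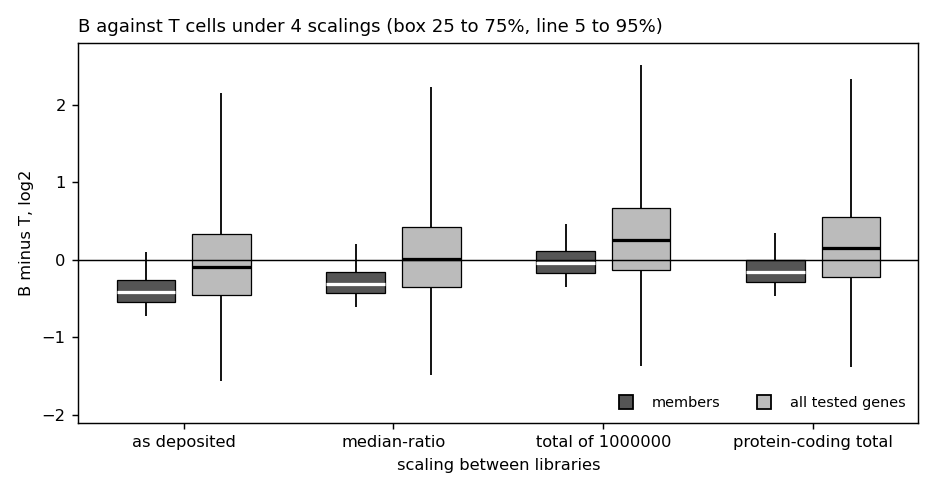
Distribution of the B minus T difference (log2, vertical axis) for the 86 tested members (dark boxes) and all 12520 tested genes (light boxes) under 4 scalings between libraries; boxes span the 25th to 75th percentile, lines the 5th to 95th, and bars inside mark the median. The dark median sits 0.30 to 0.33 below the light one under each scaling, while its own value runs from -0.42 to -0.05. A scaling shifts all genes nearly alike, so this distance is not a separate result under each.

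Within a library the members can also be set against the rest of its signal. Against the signal of protein-coding genes without members, receptor segments, mitochondrial genes and Lars2, members made up 10.5 to 11.8 parts per 1000 in the 6 B libraries, with a median of 11.3, and 12.03 to 13.5 in the 6 T libraries, with a median of 12.9. The groups did not overlap on this base, and the ratio of T to B was 1.15. As a share of the whole protein-coding signal members took 0.837% to 1.07% in B and 0.990% to 1.23% in T libraries, where male T cell 6, at 0.990%, lay below 5 of the 6 B libraries. Among other protein-coding genes with a mean of at least 10, 43.8% were higher in T cells, with a median difference of -0.10. These values were near the 41.6% and -0.09 of all tested genes. Short transcripts differed more in the same direction as members. Among those whose longest transcript was also at most 1000 bases, 59.8% (216 of 361) were higher in T cells, with a median difference of -0.35. Members of that class gave 35 of 41 higher in T cells and a median of -0.48. The part of level and length in the member difference was not tested.

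Past the threshold in the same direction under all 4 scalings were 3 members higher in T cells, namely Cox7a2l, Ndufv3 and Ndufa10, and the same 4 higher in B cells. The share of all tested genes that passed under all 4 is not given here. With a total of 1000000 alone, 3 of 86 members passed towards T and 5 towards B cells. The shares of all tested genes were 15.9% and 38.4%, so such calls were not particular to members. With an equal total of tested genes apart from members and receptor segments, Ndufa10 did not pass (-0.43, adjusted p = 0.053). Cox7a2l (chr17:83501918-83517330) had a lowest, median and highest level of 146, 161 and 192 in B and 315, 380 and 453 in T libraries. The mean in T was 2.34 times that in B, and the log2 difference was -1.22 (SE 0.10, limma adjusted p = 1.55e-07). All 6 T libraries lay above all 6 B libraries, with a wide gap between the groups. The ratio of Cox7a2l to its relative Cox7a2, which does not move with the scaling, was 3.77 to 4.99 in B and 6.49 to 7.21 in T libraries.

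Ndufv3 (chr17:31520115-31531331), a small accessory subunit of the NADH-oxidising tip of complex I, had levels of 17.5, 18.7 and 19.8 in B and 35.3, 40.2 and 44.3 in T libraries. Its mean in T was 2.17 times that in B, with a log2 difference of -1.07 (SE 0.06, adjusted p = 3.54e-09). The B values were tightly grouped and far below the lowest T value. Set against Ndufv1, the flavin-binding core subunit of the same tip, its ratio was 0.6001 to 0.731 in B and 1.00 to 1.29 in T libraries. Ndufa10 (chr1:92439010-92473860), another accessory subunit of complex I, had levels of 27.2, 30.4 and 35.2 in B and 44.1, 53.5 and 63.5 in T libraries, and a log2 difference of -0.81 (SE 0.09, adjusted p = 2.18e-06). Its groups were also apart, by a smaller gap.

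Atp5sl (chr7:25619414-25625551) went furthest the other way. Its protein, DMAC2, assists assembly of the distal membrane arm of complex I, although its older symbol places it with ATP synthase. Levels were 38.8, 42.5 and 45.8 in B and 18.2, 19.3 and 20.6 in T libraries, and the log2 difference was 1.09 (SE 0.05, adjusted p = 5.93e-10). All B libraries were well above all T libraries. The related Atp5s (chr12:69724950-69744660), called coupling factor B or DMAC2L, had lower levels, at 2.69, 2.95 and 3.51 in B and 1.51, 1.69 and 2.24 in T libraries, with a log2 difference of 0.52 (SE 0.07, adjusted p = 2.52e-05). Both members that bear an Atp5 name without being structural subunits thus sat with the B cell side.

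Sdhaf2 (chr19:10500534-10526142), which helps to attach the flavin cofactor to the complex II subunit Sdha, had levels of 20.7, 23.3 and 26.0 in B and 14.6, 16.4 and 18.8 in T libraries. Its log2 difference was 0.49 (SE 0.07, adjusted p = 4.55e-05), and the groups did not overlap. Its ratio to Sdha was 0.295 to 0.379 in B and 0.199 to 0.220 in T libraries. Ndufs8 (chr19:3908863-3912774), an iron-sulphur core subunit of complex I, was the only structural subunit past the threshold towards B cells on the deposited scale, with levels of 23.8, 26.3 and 27.5 in B and 15.03, 18.4 and 22.6 in T libraries and a log2 difference of 0.45 (SE 0.08, adjusted p = 3.60e-04). Its ratio to Ndufs7, the neighbouring iron-sulphur subunit, was 0.891 to 0.989 in B and 0.569 to 0.667 in T libraries. For both genes the highest T library was below the lowest B library.

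**Figure D3:**
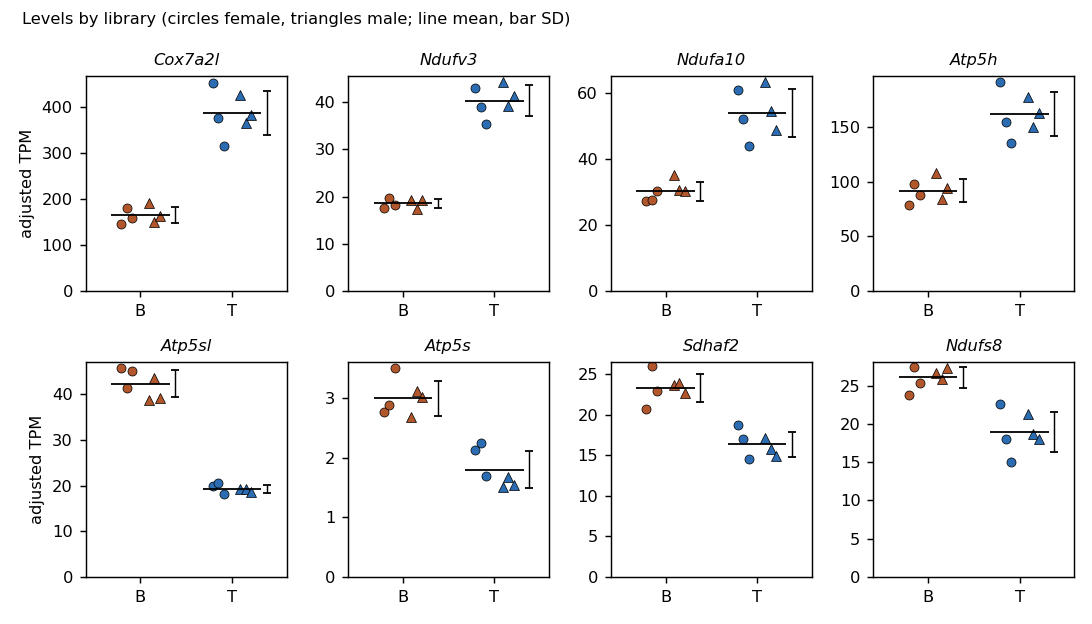
Adjusted TPM of 8 members in each library (circles female, triangles male, line the mean of 6 libraries, bar the SD), for B cells left and T cells right in each panel, with every axis starting at 0. The T points lie above all B points for Cox7a2l, Ndufv3, Ndufa10 and Atp5h and below them for Atp5sl, Atp5s, Sdhaf2 and Ndufs8.

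Complex I, the entry point for electrons from NADH, contributed 36 subunits. Of the 7 core subunits, the catalytic part shared with bacteria, 5 were higher in T and 1, Ndufs8, in B cells on the deposited scale. Of the 29 accessory subunits, which surround that core, 27 were higher in T cells and none in B cells. The counts higher in T cells were 4 and 24 with median-ratio scaling, 0 and 20 with the protein-coding total and 0 and 2 with a total of 1000000. The highest accessory subunit, Ndufa6, was at 50.5, 59.7 and 71.6 in B and 73.4, 92.1 and 111 in T libraries, with a difference of -0.64 (adjusted p = 1.08e-04) that was negative under all 4 scalings. The lowest, Ndufa11, was at 5.57, 5.77 and 6.53 in B and 5.74, 7.44 and 9.001 in T libraries, and its difference of -0.28 (adjusted p = 0.016) turned positive with a total of 1000000.

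The 7 complex I assembly factors, which build the enzyme without staying in it, were less one-sided. Of these, 3 were higher in T cells on the deposited scale, none was higher in B cells, and 4 did not pass. With the protein-coding total the count was 0 in T and 3 in B cells. Ndufaf4, the highest of them, was at 8.77, 10.9 and 11.9 in B and 13.7, 14.2 and 15.5 in T libraries, with no overlap, and its difference of -0.42 (adjusted p = 1.58e-04) stayed negative under all 4 scalings, although it did not pass with the protein-coding total (adjusted p = 0.088) or a total of 1000000. Ndufaf6, the lowest, was at 1.72, 2.46 and 2.96 in B and 2.46, 3.30 and 3.86 in T libraries, where the ranges overlapped, with a difference of -0.31 (adjusted p = 0.024). It did not pass with median-ratio scaling (adjusted p = 0.082), the protein-coding total (0.36) or a total of 1000000 (0.90), nor when female B cell 1, male B cell 1, female T cell 4, female T cell 5, male T cell 4 or male T cell 5 was left out (0.051 to 0.058). Across roles, 65 of 74 structural subunits of complexes I to V were higher in T and 1 in B cells, and the 11 assembly factors and other Atp5 names gave 4 and 3. Under the protein-coding total these counts became 42 and 5, and 1 and 6. The group of 11 pools the 2 other Atp5 names, both higher in B cells, with the assembly factors. On the deposited scale the complex I assembly factors alone gave 3 and 0, and those of complex II 1 and 1. The list of 32 further assembly factors and cytochrome c, described below, gave 21 and 5.

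**Figure D4:**
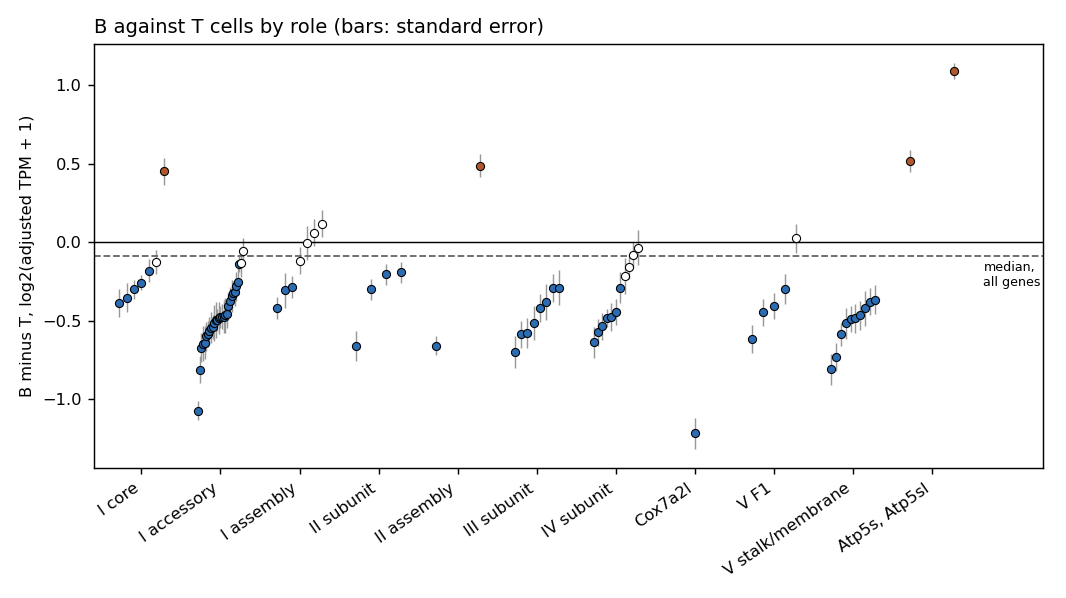
B minus T difference on the log2(adjusted TPM + 1) scale for each of the 86 tested members (points with standard errors), grouped by role; blue points passed an adjusted p of 0.05 towards T, orange towards B cells, open points did not pass, and the dashed line is the median of all tested genes. Accessory subunits of complex I and the subunits of complexes III and V lie almost wholly below the line on the deposited scale, and 4 members stand above 0.4.

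Complex II, or succinate dehydrogenase, is both a citrate cycle enzyme and a respiratory complex. All 4 subunits were higher in T cells on the deposited scale, by unequal amounts, and only Sdhc was negative under all 4 scalings. The count higher in T cells was 2 with median-ratio scaling, 1 with the protein-coding total and 0 with a total of 1000000. Sdhc, a membrane anchor, was at 19.0, 23.8 and 25.8 in B and 29.97, 38.9 and 42.4 in T libraries, with a difference of -0.66 (adjusted p = 4.37e-05). Sdhd, the other anchor, was at 30.01, 33.0 and 37.1 in B and 33.7, 37.7 and 42.6 in T libraries, with a difference of -0.19 (adjusted p = 0.022). Sdhd did not pass with median-ratio scaling (-0.08, adjusted p = 0.22), nor when male B cell 2, male B cell 3, female T cell 4 or male T cell 6 was left out (adjusted p 0.051 to 0.057). The groups were apart for Sdhc and overlapped for Sdhd. The ratio of the anchors, Sdhc to Sdhd, was 0.588 to 0.811 in B and 0.784 to 1.10 in T libraries, with a small overlap.

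Sdha, the flavoprotein, was at 61.1, 67.3 and 76.7 in B and 73.2, 79.4 and 85.6 in T libraries, with a difference of -0.21 (adjusted p = 0.018). Sdhb, the iron-sulphur subunit whose promoter is printed above, was at 32.7, 36.0 and 37.4 in B and 37.8, 43.8 and 49.0 in T libraries, with a difference of -0.30 (adjusted p = 0.0012). Sdhb was just without overlap and Sdha overlapped, and with a total of 1000000 the difference turned positive for Sdha, Sdhb and Sdhd. The ratio of Sdhc to Sdha was 0.311 to 0.375 in B and 0.410 to 0.495 in T libraries, without overlap. The pair of assembly factors moved in opposite directions: Sdhaf1, which protects the iron-sulphur clusters on their way into Sdhb, was at 6.49, 6.99 and 7.79 in B and 9.61, 12.1 and 13.7 in T libraries, with a difference of -0.66 (adjusted p = 6.03e-07), against 0.49 for Sdhaf2. Sdhaf1 overlaps the gene E130208F15Rik, whose level was on average 24.2% and at most 37.3% of that of Sdhaf1, so reads could be split between them.

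Complex III passes electrons from quinol to cytochrome c. All 8 subunits were higher in T cells on the deposited scale, 6 with median-ratio scaling, 5 with the protein-coding total and 0 with a total of 1000000. Uqcrh, the hinge protein near the cytochrome c site and the highest of the 8, was at 124, 144 and 183 in B and 193, 251 and 262 in T libraries. All 6 T libraries were above all 6 B libraries, and the difference was -0.70 (SE 0.10, adjusted p = 3.81e-05), negative under all 4 scalings. Uqcr11, the smallest and lowest, was at 18.1, 21.5 and 25.5 in B and 22.3, 26.7 and 31.3 in T libraries, and its difference of -0.29 (adjusted p = 0.012) turned positive with a total of 1000000.

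Complex IV, cytochrome c oxidase, reduces oxygen to water. Of its 11 widely expressed nuclear subunits, Ndufa4 among them, 7 were higher in T cells and 4 did not pass on the deposited scale, against 6 and 2 higher in T and B cells with the protein-coding total and 0 and 0 with a total of 1000000. Cox4i1, the highest, was at 115, 130 and 150 in B and 162, 198 and 235 in T libraries, without overlap, with a difference of -0.64 (adjusted p = 6.24e-05). Cox7a2, the lowest, was at 29.2, 39.7 and 41.3 in B and 48.5, 55.8 and 63.0 in T libraries, again without overlap, with a difference of -0.54 (adjusted p = 1.03e-04). Both were negative under all 4 scalings. Cox8a, in contrast, was at 92.8, 115 and 140 in B and 86.2, 122 and 130 in T libraries, where the ranges overlapped almost fully, and its difference of -0.04 had an adjusted p of 0.79, whereas with the protein-coding total it passed towards B cells (0.23, adjusted p = 0.027). Cox6a1 gave -0.21 (adjusted p = 0.11) and Cox6b1 -0.29 (adjusted p = 0.019), both with overlapping ranges, and the sign of all 3 of these depended on the scaling.

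The tissue-restricted isoforms of complex IV, known from heart, skeletal muscle, lung and testis, were listed near 0 in these lymphocytes. Cox7a1 was the highest of the 8, at 0.159 to 0.235 in B and 0.0539 to 0.114 in T libraries, beside 29.2 to 63.0 for its widely expressed partner Cox7a2. Cox4i2 was at most 0.000459 in any library, beside 115 to 235 for Cox4i1, and Cox6a2 at most 0.0753, beside 52.0 to 89.6 for Cox6a1. Each isoform was thus far below its partner in every library. Cox6b2 reached at most 0.0212 (Cox6b1 58.9 to 103), Cox7b2 at most 0.00143 (Cox7b 53.5 to 99.9), and Cox8b at most 0.153, with Cox8a at 86.2 to 140. Cox8c stayed under 0.01 in every library, and Ndufa4l2 was at most 0.118, beside 65.4 to 107 for Ndufa4. Such low values carry little precision, and these 8 genes were not tested.

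Complex V makes ATP with a catalytic head, F1, joined by stalks to a membrane rotor. Of the 5 tested F1 subunits 4 were higher in T cells on the deposited scale, and of the 10 stalk and membrane subunits all 10 were, 10 again with median-ratio scaling, 7 with the protein-coding total and 0 with a total of 1000000. Atp5h, subunit d of the peripheral stalk (chr11:115415689-115419962), was at 78.5, 91.2 and 108 in B and 135, 159 and 192 in T libraries, with a difference of -0.81 (SE 0.10, adjusted p = 6.17e-06). Atp5j2, a small membrane subunit, was at 33.5, 41.5 and 43.8 in B and 54.8, 67.1 and 78.8 in T libraries, with a difference of -0.73 (adjusted p = 9.63e-06). For both, the T libraries were all above the B libraries, and the sign was the same under all 4 scalings. Atp5b was at 219, 258 and 281 in B and 291, 357 and 387 in T libraries, with no overlap and a difference of -0.45 (adjusted p = 5.58e-04). Atp5g1, a gene for the rotor ring and the lowest of its group, was at 23.6, 27.3 and 32.6 in B and 30.4, 40.0 and 43.5 in T libraries, with overlapping ranges and a difference of -0.47 (adjusted p = 5.01e-04). Atp5d, the delta subunit of the central stalk that seats the head, was at 38.1, 41.6 and 51.9 in B and 35.1, 42.8 and 48.5 in T libraries, a difference of 0.02 with an adjusted p of 0.82. With the protein-coding total Atp5d passed towards B cells (0.29, adjusted p = 0.0011).

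The sums over the complexes followed the single genes. All members together summed to 3574 to 4583 in B and 4744 to 6336 in T libraries, without overlap, with a T to B ratio of 1.39. The ratio was 1.35 for complex I, 1.24 for complex II, 1.46 for complex III, 1.30 for complex IV and 1.39 for complex V, where Cox7a2l was counted with no complex. The sums of the cell types did not overlap except for complex IV, at 707 to 915 in B and 893 to 1177 in T libraries. For the assembly factors of complexes I and II it was 1.05, with 70.1 to 82.7 in B and 73.3 to 89.9 in T libraries, and with the other 3 scalings their B sum was the higher. With a total of 1000000 the B sum was also the higher for complexes II and IV. No test was made on the sums.

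The share of each complex in the summed subunits of a library does not move with the scaling. Complex V took 34.8% to 35.5% in B and 35.6% to 36.1% in T libraries, and complex IV 21.2% to 22.1% in B and 20.2% to 20.8% in T libraries, without overlap in either case. The shares of complex III were 11.2% to 11.9% in B and 11.8% to 12.5% in T libraries, those of complex II 3.96% to 4.39% and 3.64% to 4.03%, and those of complex I 26.9% to 28.1% and 26.9% to 27.8%, each with some overlap. The order of the complexes by share, V, I, IV, III and II, was the same in all 12 libraries. Against the same sum, the assembly factors of complexes I and II stood at 1.94% to 2.18% in B and 1.45% to 1.69% in T libraries, and did not overlap.

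**Figure D5:**
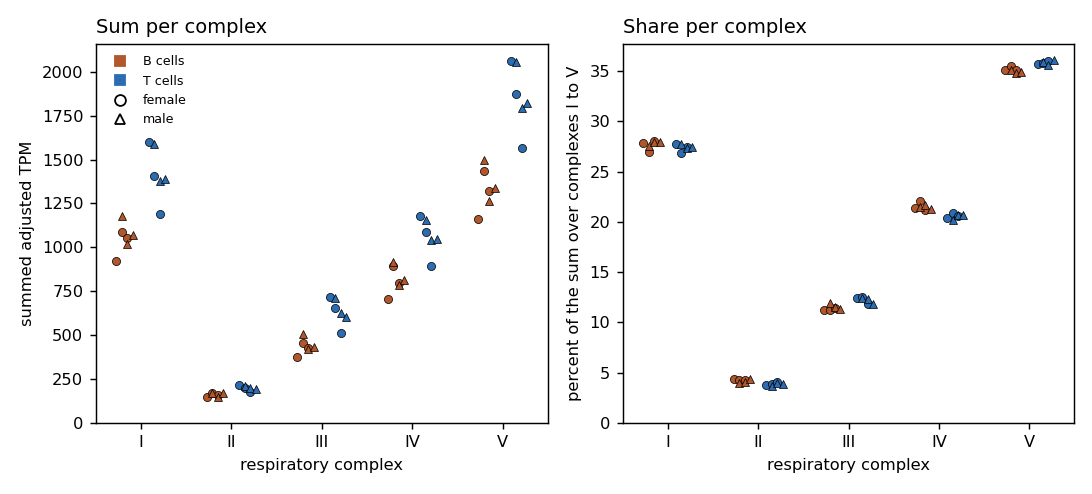
Left, summed adjusted TPM of the nuclear subunits of each complex in each library; right, the same as a percentage of the sum over complexes I to V (B cells orange, T cells blue, circles female, triangles male, axes starting at 0). On the left the T points lie above all B points on the deposited scale except for complex IV, where they overlap, and on the right the cell types differ by little.

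Females and males did not differ in any member at an adjusted p of 0.05. In B cells 0 of 86 members passed, where 0.144% of all tested genes did, and 0 had an unadjusted p under 0.05. In T cells 0 passed, where 0.104% of genes did, and 3 had an unadjusted p under 0.05. The difference of the sex effects between cell types gave 0 members at either threshold, where 0.0% of genes passed. The median half-width of the 95% interval of a member was 0.27 on the log2 scale in either cell type. For the difference of the effects it was 0.39. Those intervals are not adjusted for the number of genes tested. With 3 pools a group, differences somewhat larger than these half-widths could therefore also fail to pass. These counts do not show that the sexes were alike.

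The smallest p in B cells belonged to Ndufa5, an accessory subunit of complex I, at 11.3, 15.9 and 16.1 in females and 20.0, 14.8 and 17.7 in males, a difference of females minus males of -0.27 (SE 0.16, unadjusted p = 0.12, limma adjusted p = 1.00). The smallest p in T cells belonged to Sdhaf1, at 11.4, 9.61 and 10.2 in females and 13.3, 12.9 and 13.7 in males. Its female libraries were all below its male libraries, and the difference was -0.33 (SE 0.09, unadjusted p = 0.0025, limma adjusted p = 0.73). Sdhaf1 also had the smallest p for the difference between the sex effects, 0.24 with an unadjusted p of 0.071 in limma. Taken within each sex, 61 members were higher in T than in B cells in females, where 35.6% of all tested genes were, and 54 in males, where 34.7% were, with 52 of them in both, and 78 members were negative in both sexes on the deposited scale.

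Of the 13 subunits encoded by mitochondrial DNA, on the deposited scale none was higher in T and 9 were higher in B cells, with a median difference of 0.49, and under each of the other 3 scalings the counts were 0 and 11. The most abundant, mt-Co1, a core subunit of complex IV, was at 5611 to 8335 in B and 5754 to 7993 in T libraries and did not pass (-0.05, adjusted p = 0.84). The largest differences were those of complex I subunits, mt-Nd5 with 129 to 271 in B and 69.6 to 115 in T libraries (0.98, adjusted p = 2.05e-04), and mt-Nd6 with 64.2 to 180 in B and 47.5 to 85.2 in T libraries (0.80, adjusted p = 0.0066). The libraries were depleted of ribosomal RNA and not selected for poly(A), and the levels of mitochondrial transcripts in different libraries spread widely, with a sum of 12836 to 19792 in B and 12103 to 16992 in T libraries. The sums overlapped.

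Among 32 genes for further assembly factors and the electron carrier cytochrome c, 21 were higher in T and 5 in B cells on the deposited scale, which became 19 and 7 with median-ratio scaling, 12 and 8 with the protein-coding total and 1 and 7 with a total of 1000000. The largest differences were those of Lyrm7 (-0.72), which handles the iron-sulphur protein of complex III, and Cox16 (-0.71), an assembly factor of complex IV, on the T side, and of Atpif1 (0.74), the inhibitor of ATP synthase, and Cox15 (0.24), which makes heme A, on the B side. Of 16 genes of pyruvate dehydrogenase and the citrate cycle, 8 were higher in T and 2 in B cells, and 1 and 6 with the protein-coding total. Pdha1 (-1.18), a subunit of pyruvate dehydrogenase, and Fh1 (1.19), fumarase, were the extremes, and both kept their direction under all 4 scalings. Mdh2 (-0.39) and Idh3g (0.30) came next.

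The transcription factors linked to respiratory genes gave calls in both directions on the deposited scale. Of 11 tested, 2 were higher in T cells, namely Yy1 (-0.31) and Ppargc1b (-0.20), and 4 in B cells, with Esrra (0.54) and Tfam (0.32) the largest, while Yy1 and Ppargc1b turned positive with a total of 1000000. The counts in T and B cells became 1 and 5 with median-ratio scaling, 0 and 7 with the protein-coding total and 0 and 5 with a total of 1000000. Nrf1 was at 29.6 to 32.6 in B and 30.3 to 34.2 in T libraries, and Gabpa at 26.1 to 31.1 and 25.4 to 30.7, with adjusted p of 0.45 and 0.74. Ppargc1a did not pass the filter on low values. The 3 factors whose cores were searched in the member promoters thus included Yy1, which passed the test on the deposited scale, and Nrf1 and Gabpa, which did not.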

How the data were processed

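RNA was freed of ribosomal RNA and made into strand-specific libraries. The processing notes of the submitters name Trim Galore, FastQC, STAR and the build mm10. Adjusted TPM, a signal, was deposited as a point estimate with a lower and an upper bound for 41128 genes in each library. The quantification tool, the rescaling, any use of strand in counting and the level of the bounds are not given in the sources used here, and the depth is unknown.

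Members were matched to GENCODE M21 (GRCm38), to which 97.9% of all identifiers matched. Differences were computed on log2(adjusted TPM + 1), which understates changes of low genes. limma 3.58.1 (R 4.3.3) was fitted to the 12520 genes with at least 1 in at least 3 libraries, with 1 coefficient per group, a variance trend and Benjamini-Hochberg adjustment over all of them. The fit was tested on simulated data with independent libraries and few changed genes. That test does not cover deviations shared between libraries or changes in most genes. All p-values, unadjusted ones included, come from this fit and are two-sided. Contrasts were B against T cells, females against males in each cell type, and the difference of those sex effects. The study's methods use count models, which adjusted TPM does not allow.

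The text names up to 6 members past the threshold with the largest change in each direction (4 towards B cells), the highest and lowest of each role, the complex II subunits, the tissue-restricted isoforms and, without calls, the smallest p. Some genes are not reported here. Some further values are given within the role descriptions. Members and lists were chosen with earlier results of these data known. Alternatives were other pseudocounts, filters and scalings, leaving out libraries, a replicate block, and near-identical copies added to a member. Copies (at least 95% identity over at least 50% of a transcript of 300 bases or more, blastn 2.17.0+) were found for 17 members. Same-numbered female and male T libraries deviated together across genes (correlations 0.72, 0.55 and 0.52), and those of B cells did not (-0.17, -0.04 and -0.34). The labels do not say that the numbers pair libraries, and the source of the shared deviations was not tested. The fit of B against T cells took no account of them.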

Additional observations from a re-analysis of the deposited data

Results flagged for a closer look

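In groups of 6 libraries of a cell type, a single library stood apart from the other 5 in 6 of the 76 groups tested by Dixon's 95% criterion, where chance gives about 1 in 20. Among B cells, female B cell 1 was the lowest for Atp5j2 (adjusted TPM 33.46, others 40.5 to 43.78), for Cox7a2 (29.23, others 39.17 to 41.27) and for the summed assembly factors of complexes I and II (70.08, others 79.17 to 82.7). This library also had a Yam1 share of 32.2%, the highest of the B libraries. Male B cell 1 was the highest for Ndufa4 (94.97, others 65.43 to 74.66). Among T cells, female T cell 6 was the lowest for Cox8a (86.23, others 118.2 to 129.9), and male T cell 6 was the highest for Ndufaf4 (15.46, others 13.72 to 14.31).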

How the results depend on the processing

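The count of 70 members higher in T cells became 3 with a total of 1000000, 2 with an equal total of tested genes apart from members and receptor segments, and 44 with the protein-coding total. The count of 4 higher in B cells became 11 with the protein-coding total and 9 with no filter, and without a filter 4 and 2 of 94 members passed between the sexes in B and T cells and 2 for the difference of the sex effects, where 26.7%, 25.8% and 27.2% of all 41128 genes passed. Sdhaf1 in T cells was among those that passed without a filter (-0.33, limma adjusted p = 0.0093). With the filter it did not pass, and 0.104% of tested genes did in T cells. Leaving out each library in turn gave 65 to 73 members higher in T cells, 4 higher in B cells and 0 for each sex comparison. With the replicate block 0 members passed for the sexes in either cell type or for their difference, so blocking by number changed no call between the sexes. The block was not applied to B against T cells, where all libraries were treated as independent. Without female B cell 1 and male T cell 6, the libraries with the highest Yam1 shares, and with near-identical copies added, the counts were 65 and 70 higher in T cells. These 2 alternatives, the protein-coding total and the block within a single cell type were chosen after seeing the data.

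The sign changes and lost calls named next cover only members whose B minus T difference is given above. Among all 86 tested members, 7 had a positive difference on the deposited scale. The number was 36 with a total of 1000000, 38 with the equal total of other tested genes and 22 with the protein-coding total. Signs turned positive with a total of 1000000 and with the equal total of other tested genes for Cox6a1 (0.16 and 0.17), Cox6b1 (0.087 and 0.097), Cox8a (0.34 and 0.35), Ndufa11 (0.052 and 0.060), Sdha (0.17 and 0.18), Sdhb (0.073 and 0.082), Sdhd (0.18 and 0.19) and Uqcr11 (0.077 and 0.087). With the protein-coding total they turned for Cox6a1 (0.050), Cox8a (0.23), Sdha (0.059) and Sdhd (0.069). With median-ratio scaling Cox6b1, Ndufa11, Ndufaf6, Sdha, Sdhd and Uqcr11 did not pass (adjusted p 0.057 to 0.22), and without female T cell 5 Cox6b1 did not (0.051). Cox8a also turned with median-ratio scaling (0.078), without the libraries of highest Yam1 share (0.0087), and when single libraries were left out (-0.12 to 0.024). Atp5d ran from -0.044 to 0.065 when single libraries were left out. The difference of the sex effects for Sdhaf1 became -0.090 and -0.091 with those same scalings to equal totals.

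The log2 ratio of summed levels, B to T, was -0.084 for all members with a total of 1000000, -0.045 for complex I, 0.079 for II, -0.16 for III, 0.0045 for IV, -0.090 for V and 0.33 for the assembly factors. With the protein-coding total it was -0.20, -0.16, -0.038, -0.28, -0.11, -0.21 and 0.20 in the same order. With median-ratio scaling it was -0.19 for complex II and 0.049 for the assembly factors. Leaving out single libraries kept it between -0.52 and -0.44 for all members. The cause of these shifts was not tested, and the unknown depth limits what any fold of a low gene shows.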

Other observations

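Many members start next to another gene. Of the 86 tested members, 22 (25.6%) had the start of a protein-coding gene on the opposite strand within 1000 bases upstream, against 11.4% of the 10314 other tested protein-coding genes. The partners included Timm8b, a mitochondrial import chaperone, beside Sdhd, Kctd2 beside Atp5h, Wdr4 beside Ndufv3 and Lrrc41 beside Uqcrh. Overlap with a gene on the opposite strand was found for 24 tested members (27.9%), Sdhaf1 and Sdhaf2 among them, against 22.5% of those other genes. Since the use of strand in counting is not given, reads of these cannot be told apart from those of their partners. The genes named here were chosen after their values were seen.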
